A study of Mus musculus with 6 samples.

Results

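Msh6, Msh3, Pms2 and Exo1 are genes of DNA mismatch repair, described here in haematopoietic stem cells (HSCs) of mouse bone marrow that had kept or lost a nuclear label. The members were the array probe sets whose single gene symbol was one of these names, which gave 11 probe sets of 45037 tested and 4 genes of 18193 measured. The group was put together with the comparison of the cell populations already known, and Msh6 had been noted because its values separated the groups. The genes were chosen by name, with Msh6 selected on its array values in LRC and non-LRC, the groups defined below. Those values are therefore given as a description, with no test, and so are those of the other members. The mice carried H2B-GFP, a green fluorescent histone, under a tetracycline-responsive element, and the tTA-S2 transactivator under the endogenous scl locus, which limits the label to stem and progenitor cells. All samples came from this SCL-tTA H2B-GFP line after a chase of 170 days on doxycycline, which stops synthesis of the fusion protein, so that it is diluted as cells divide. All cells were sorted as CD34 Neg, Lin Neg, Sca1+, cKit+, CD150+ and CD48 Neg. GFP+ cells formed the label-retaining group (LRC, 3 arrays) and GFP neg cells the non-LRC group (3 arrays). A GFP neg cell may have divided the label away or may never have carried it, and the age of the mice and whether marrow was pooled are not given in the sources used.

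Mismatch repair corrects bases wrongly paired, inserted or left out when DNA is copied. MutS proteins find the error: the product of Msh6 forms the complex that reads single mispairs and short loops, and that of Msh3 the complex that reads larger loops. MutL proteins act next, and Pms2 supplies their nicking activity, after which Exo1 removes the faulty strand, and the replication clamp, polymerase and ligase refill and seal it. In blood stem cells the pathway is known for limiting mutation and for the response to alkylating drugs.

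By RefSeq's GRCm38.p6 annotation, Msh6 lies at chr17:87975050-87990892, Msh3 at chr13:92211878-92355004, Pms2 at chr5:143909901-143972745 and Exo1 at chr1:175880768-175911396. RefSeq promoter windows matched 3 of the 4 members, Exo1 being without one. Each is printed from 250 bases before the start site to 25 bases after it, because the members with the smallest and largest differences among the representative probe sets, Msh3 and Msh6, both hold letters of the E2F type, which E2F factors of the G1 to S transition are known to bind. Capitals mark those letters.
Msh6, chr17:87974800-87975074, plus strand: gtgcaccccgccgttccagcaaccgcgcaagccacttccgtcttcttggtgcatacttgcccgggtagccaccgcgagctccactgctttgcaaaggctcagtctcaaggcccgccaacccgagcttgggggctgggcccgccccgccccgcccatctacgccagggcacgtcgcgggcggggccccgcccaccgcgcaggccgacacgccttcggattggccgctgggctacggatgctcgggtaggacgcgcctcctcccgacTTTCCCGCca
Msh3, chr13:92354979-92355253, minus strand: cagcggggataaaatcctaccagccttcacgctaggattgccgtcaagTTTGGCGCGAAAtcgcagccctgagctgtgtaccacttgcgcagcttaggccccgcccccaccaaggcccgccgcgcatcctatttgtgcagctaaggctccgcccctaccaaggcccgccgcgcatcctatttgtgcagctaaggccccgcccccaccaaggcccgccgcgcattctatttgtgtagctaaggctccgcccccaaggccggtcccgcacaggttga
Pms2, chr5:143909751-143910025, plus strand: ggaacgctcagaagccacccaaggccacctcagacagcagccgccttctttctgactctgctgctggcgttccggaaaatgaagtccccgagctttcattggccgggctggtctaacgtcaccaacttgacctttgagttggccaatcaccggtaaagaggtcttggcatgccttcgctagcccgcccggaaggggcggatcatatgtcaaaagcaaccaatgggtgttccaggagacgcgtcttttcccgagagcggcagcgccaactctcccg

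The E2F-type letters searched on both strands were TTTCCCGC, TTTGGCGC and TTTCGCGC. The Msh6 window held TTTCCCGC, beginning 16 bases into the transcript, letters found in 0.974% of 32851 promoter windows of the same length. The Msh3 window held TTTGGCGC (0.466% of windows) from base -202 and, overlapping it on the other strand, TTTCGCGC (0.295%) from base -198. The Pms2 window held none of the 3. The GC box letters CCGCCC, present in 34.4% of windows, occurred 5 times in Msh6, 4 times in Msh3 and 2 times in Pms2, some side by side. The CCAAT letters, present in 35.8% of windows, occurred 3 times in Pms2 and 1 time in Msh6 and were not found in the Msh3 window. A match of letters is a description of the window and no evidence of binding in these cells.

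Array values are log2 expression values after RMA, which corrects background, equalizes the arrays and summarizes probes, so a step of 1 is a doubling. Array medians lay between 4.33 and 4.39. Across probe sets, LRC replicate 1 had the lowest correlations with other arrays (0.902 to 0.920). Hybridization controls, which are transcripts added from outside, averaged 11.24 in LRC replicate 1 and 11.02 in LRC replicate 3, against 10.58 to 10.70 in the other 4 arrays. Of 6 listed stem cell genes, 4 were measured. Procr, a marker of HSCs, was at 10.28 to 11.10, and Kit, a gate receptor, was as high as 9.13 and differed by 0.03 (SE 0.17). Slamf1, the gene of CD150, ran from 6.24 in LRC replicate 1 to 8.83 in LRC replicate 3 and differed by -0.37 (SE 0.69). Tal1, the scl gene, was at 7.39 to 8.73 and differed by 0.41 (SE 0.36). Cd48, absent from the gate, was at 2.34 to 3.27, but Cd34, also absent from it, ran from 2.52 in LRC replicate 1 to 7.43 in non-LRC replicate 1. Mpo, a myeloid gene, was at 4.03 in LRC replicate 1 and at 7.57 to 9.20 elsewhere. The other measured myeloid genes read lower, Elane at 4.61 to 6.20, Csf1r at 4.03 to 4.47 and Itgam at 2.59 to 3.21. Markers of B cells (2 of 3 listed genes measured) and T cells (4 of 4) had mean levels of 2.95 to 3.16 and 3.53 to 3.97 per array, below every array's median. Among the T cell genes, Cd8a (4.29 to 5.01) and Cd4 (4.14 to 4.79) exceeded the median in some arrays, while Cd3e and Cd3g did not. The megakaryocyte genes Pf4 and Itga2b read 5.62 to 7.75 and 7.07 to 7.80, and Klf1, an erythroid gene, ran from 2.93 to 6.76. Proliferation markers (3 of 3 measured: Mki67, Top2a and Ccna2) had mean levels of 5.95 to 8.03 in LRC and 7.76 to 8.92 in non-LRC.

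Msh6, the mispair-reading MutS gene, was lower in every LRC array than in every non-LRC array. Its 1 probe set read 9.07, 9.13 and 9.14 in non-LRC replicates 1 to 3. In LRC replicates 1 to 3 it read 8.32, 8.13 and 8.44. The non-LRC arrays lay close together and the LRC arrays below them, with 0.63 between the lowest non-LRC and the highest LRC value. On the log2 scale the means were 9.11 ± 0.04 in non-LRC and 8.30 ± 0.15 in LRC (SD, n = 3 each). LRC minus non-LRC was -0.81 (moderated SE 0.18), a 1.76-fold lower level in LRC. In a bulk sample, fewer cells that express a gene and less of its RNA per cell cannot be told apart.

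**Figure D1:**
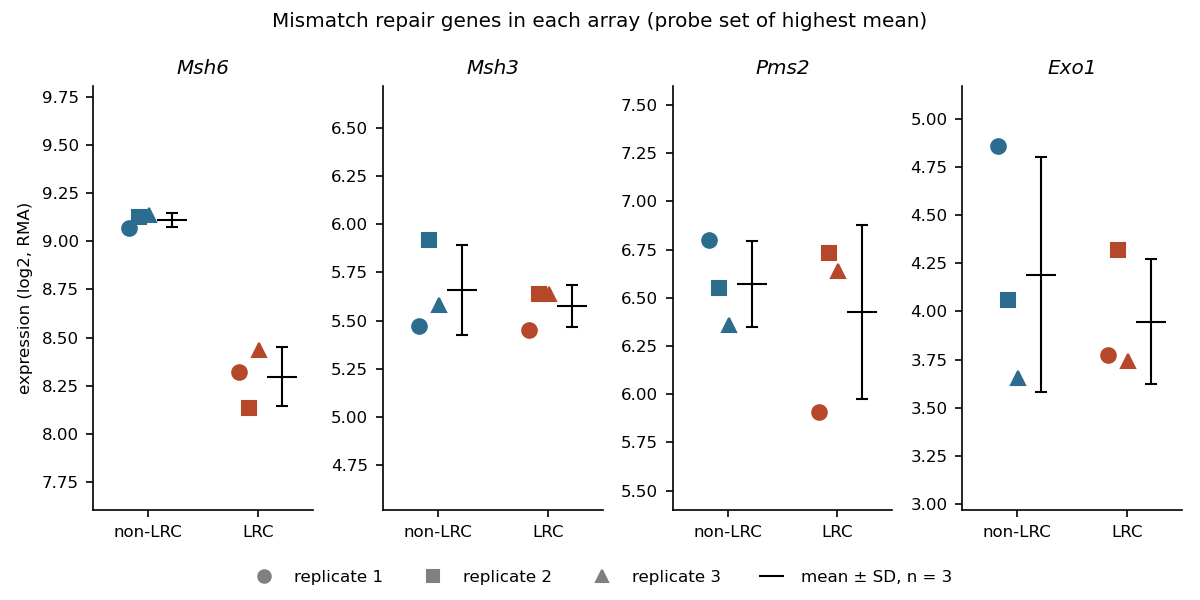
Expression (log2, RMA) of the 4 mismatch repair genes in each of the 6 arrays, at the probe set of highest mean, with the mean and SD of 3 arrays beside each group; every panel spans the same range of log2 units. The Msh6 points of LRC (8.13 to 8.44) lie below those of non-LRC (9.07 to 9.14), while the groups overlap for Msh3, Pms2 and Exo1.

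When each array was left out in turn, the Msh6 difference ran from -0.88 to -0.73. Its sign could not change there, because Msh6 was noted for groups that separate, so these values are a description. LRC replicate 2, whose hybridization controls were not bright, had the lowest Msh6 value. As the only LRC array, in a fit added after seeing the data, it gave -0.98, an unreplicated value. A fit that took the level of those controls into account gave -0.92 (SE 0.21). Because the controls were brightest in LRC replicates 1 and 3, that fit cannot fully tell their level apart from the group. The same limit holds wherever the fit is used below. Without LRC replicate 1, the array that stood apart, the Msh6 difference was -0.83. Whether array quality bears on that difference was not tested. The proliferation markers also had lower means in LRC, 3 of 3, by amounts that depended on the arrays. Mki67 differed by -0.997, or by -0.23 without LRC replicate 1 and by -0.0019 with the control level in the fit. Top2a differed by -0.94, or by -0.47 and 0.066 under those settings, and Ccna2 by -1.96, or by -1.33 and -1.21. Their part in the Msh6 difference was not tested. A gap between the groups at least as wide, with LRC below, was found in 22 of 18193 genes, Msh6 included, and with LRC above in 24. A mean difference at least as low was found in 811 genes, Msh6 included. Because Msh6 was noted for its separated groups, nothing is read from its place in these counts.

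Msh3, the loop-reading MutS gene, did not separate the groups. Its probe set of highest mean read 5.47, 5.92 and 5.58 in non-LRC replicates 1 to 3 and 5.45, 5.64 and 5.64 in LRC. The LRC values lay within the non-LRC range apart from the lowest, which was just under it. The means were 5.66 ± 0.23 and 5.57 ± 0.11 (SD, n = 3 each), a difference of -0.08 (SE 0.20). Leaving out single arrays gave -0.18 to 0.05, the value above 0 coming without non-LRC replicate 2. The mean of its 4 probe sets differed by 0.08.

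The 4 Msh3 probe sets differed in sign, 2 lower and 2 higher in LRC. The probe set 1430643_at differed by 0.34 (SE 0.25) and 1446511_at by 0.58 (SE 0.35), whereas 1424166_at differed by -0.50 (SE 0.39). The groups overlapped at each of them. The probe set 1446511_at read 2.67 to 2.89 in non-LRC and 2.79, 4.09 and 3.17 in LRC, below every array's median, so that LRC replicate 2 carried most of its difference. Which exons or transcript ends these probe sets read was not known here.

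Pms2, the MutL gene with the nicking activity, overlapped between the groups. Its probe set of highest mean read 6.80, 6.55 and 6.36 in non-LRC replicates 1 to 3. In LRC it read 5.91, 6.73 and 6.64, so that replicate 1 was low and the other two lay within the non-LRC range. The means were 6.57 ± 0.22 and 6.43 ± 0.45 (SD, n = 3 each), a difference of -0.14 (SE 0.28). Without LRC replicate 1 it was 0.11, and with the other arrays left out in turn it was as low as -0.30. The probe set 1436273_at stood the other way, reading 4.98 to 5.15 in non-LRC and 5.85, 5.74 and 4.80 in LRC. Its difference was 0.41 (SE 0.31), and LRC replicate 3 was the array that overlapped with, and lay under, non-LRC. The probe set 1432421_at, below the array medians, differed by -0.48 (SE 0.47).

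Exo1, the exonuclease gene, had a lower mean in LRC at 3 of 3 probe sets, and the groups overlapped at each. Its probe set of highest mean read 4.86, 4.06 and 3.66 in non-LRC and 3.78, 4.32 and 3.74 in LRC, for replicates 1 to 3. Non-LRC replicate 1 was the highest array and non-LRC replicate 3 the lowest. The means were 4.19 ± 0.61 and 3.95 ± 0.32 (SD, n = 3 each), a difference of -0.24 (SE 0.36). Without non-LRC replicate 1 the difference was 0.09. The probe set 1418027_at, read from the same source sequence, differed by -0.38 (SE 0.23), with LRC at 3.62 to 3.73 and non-LRC at 4.26, 4.24 and 3.67. Here non-LRC replicate 3 was the array that fell into the LRC range. The probe set 1430225_at differed by -0.70 (SE 0.52), of which non-LRC replicate 1, at 4.39, was the array far above the others (2.08 to 2.98). The mean of each Exo1 probe set lay below the array medians.

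**Figure D2:**
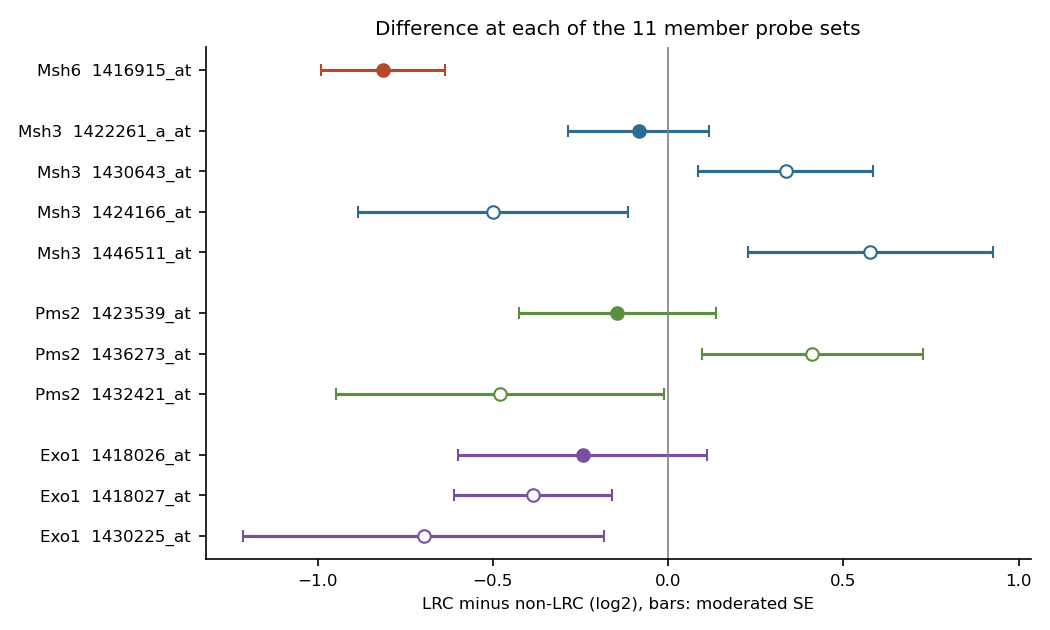
Difference LRC minus non-LRC (log2) at each of the 11 probe sets of the 4 genes, with limma's moderated SE as bars; filled points mark the probe set of highest mean of each gene. Of the 11, 8 lie below 0 and 3 above, and the Msh6 point at -0.81 is the lowest.

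Over the 11 probe sets, 8 had a lower mean in LRC, where 44.7% of all probe sets did, and 1 had groups that did not overlap, that of Msh6, where 8.28% of all probe sets did (3.40% lower and 4.88% higher in LRC). Limma with Benjamini-Hochberg adjustment called 0 of the 11, and 0 of all 45037 probe sets (0%), with a smallest adjusted p of 0.658; at an unadjusted p under 0.05 there were 1673. All 4 genes had a lower mean in LRC at their probe set of highest mean, with a median difference of -0.19, where 45.1% of all genes were lower and the median of all genes was 0.03. Since this comparison was known when the genes were chosen, nothing is read from these counts. When single arrays were left out, 2 or 3 of the 11 probe sets separated, as smaller groups separate more easily. Msh6 was among them by construction, since groups that separate with all arrays still separate when 1 is left out.

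**Figure D3:**
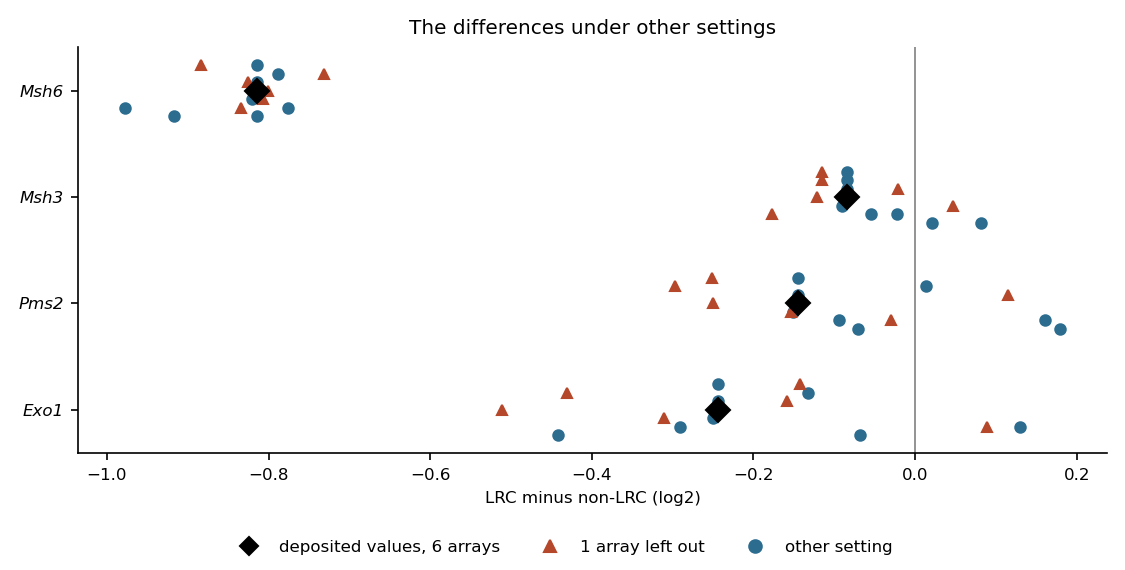
Difference LRC minus non-LRC (log2) of each gene at its probe set of highest mean, from the deposited values with 6 arrays (diamonds), with 1 array left out (triangles) and under the other settings (circles). The Msh6 values lie between -0.98 and -0.73, while those of Msh3, Pms2 and Exo1 lie on both sides of 0.

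The other MutS and MutL genes gave no common direction. Of the 6 listed, 4 were measured and the others are not analysed here. None of the 4 passed limma's threshold (0 of 18193 genes did, 0%), 2 had a lower and 2 a higher mean in LRC, and the median difference was 0.17. Without LRC replicate 2 that median was -0.31, with 3 of the 4 lower. The 2 with a higher mean, Msh4 and Mlh3, had mean levels of 2.51 and 3.10, below the array medians. When only probe sets above the 40th percentile of mean level were kept, 2 genes remained, Msh5 and Pms1. Each of these was lower in LRC, with a median of -0.38. Msh5, a MutS gene of meiotic recombination, differed by -0.67 (SE 0.56), or -0.02 without non-LRC replicate 1, its highest array at 5.99. Msh4, its meiotic partner, was at 2.16 to 2.46 in non-LRC and 2.09 to 3.22 in LRC. Mlh3, a MutL gene of meiosis, was at 2.39 to 2.93 in non-LRC and, in LRC, at 2.47, 5.30 and 2.61, so that only replicate 2 was high. Pms1, a MutL gene of less settled role, differed by -0.10 (SE 0.46), and by -0.51 to 0.14 with single arrays left out.

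Genes that refill and seal the excised strand showed wide spreads. Of 14 measured, 8 had a lower mean in LRC and 6 a higher one, 0 passed the threshold, and in 0 did the groups separate (3.62% of all genes separated as lower in LRC and 4.71% as higher). The median difference was -0.24, or -0.0238 without LRC replicate 1 and 0.0069 with the hybridization control level in the fit. In the other direction it was -0.43 without LRC replicate 2. With all probe sets of each gene averaged, 11 of the 14 were lower and the median was -0.35. Pcna, the sliding clamp that MutS and MutL complexes work with, read 10.73, 10.68 and 10.53 in non-LRC and 9.79, 10.63 and 10.47 in LRC. LRC replicate 1 was low and the others were close to non-LRC, and without it the difference of -0.35 (SE 0.26) was -0.09. Lig1, the ligase that seals the nick, read 7.84, 7.19 and 7.77 in non-LRC and 3.51, 7.32 and 5.98 in LRC. Its difference of -1.99 (SE 0.92) was -0.95 without LRC replicate 1 and -0.25 with the hybridization control level in the fit.

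Clamp loader subunits differed among themselves. Rfc4 differed by -1.07 (SE 0.42), with its 1 other probe set higher in LRC. Rfc2 was lower in LRC at 3 of 3 probe sets, by -1.65 (SE 0.81) at the representative. LRC replicate 2 was not low for Rfc2 (8.75, within the non-LRC range of 7.94 to 9.36), and without it the difference was -2.56. Rfc1, the large subunit, differed by 0.23 (SE 0.23), or 0.03 without LRC replicate 3, with neither of its 2 other probe sets of that sign. Rpa2, which coats single-stranded DNA, differed by -0.88 (SE 0.58), and by -0.32 without LRC replicate 1. Rfc2 and Rpa2 differed by -0.33 and -0.0022 once the fit held the hybridization controls. Each of these 4 had an adjusted p of 0.998 in limma's test over all probe sets.

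Of the 6 genes listed for recruitment and other nucleases, 4 were measured, 2 lower and 2 higher in LRC (45.1% of all genes were lower), and 0 passed. Setd2, which writes the histone mark that the Msh6 protein is known to read, read 6.99, 6.63 and 6.57 in non-LRC and then 7.17, 7.16 and 6.95 in LRC. It thus had the opposite sign to Msh6, with groups that just overlapped and a difference of 0.36 (SE 0.20). Fen1, a flap nuclease of lagging-strand synthesis, had groups that did not overlap, at 10.14 to 10.81 in non-LRC and 9.65 to 10.00 in LRC. The gap was 0.15, and 3.62% of all genes separated as lower in LRC. The 1 other probe set of Fen1 was slightly higher in LRC. Mcm8 differed by -0.65 (SE 0.48), or -0.16 without non-LRC replicate 3, and Mcm9, its helicase partner, by 0.48 (SE 0.55), or 0.065 without non-LRC replicate 1.

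Origin licensing and MCM helicase genes, which like mismatch repair serve replicating DNA, were compared as a list chosen with these results known. Of 16 measured, 14 had a lower mean in LRC, 6 with groups that did not overlap (3.62% of all genes), and the median difference was -0.67; 0 passed the threshold. With the hybridization control level in the fit, 11 were lower and the median was -0.43. With all probe sets of each gene averaged, 15 were lower and the median was -0.39. In these 6 arrays Msh6 and the mean of that list ran in a different order within LRC. Msh6 was lowest in LRC replicate 2, whereas the mean of the licensing list was 6.80, 7.16 and 7.05 in LRC replicates 1 to 3 and thus highest there (non-LRC 7.40 to 7.69). Single genes of the list differed in this. Cdc6 was highest in LRC replicate 2 (3.29, 4.41 and 3.28), but Mcm3 was about as low there as in replicate 1 (7.73, 7.71 and 8.17). Whether Msh6 follows the list was not tested. Mcm6, a subunit of the helicase, differed by -0.62 (SE 0.20), Gmnn, which restrains licensing, by -1.17 (SE 0.35), Cdc6, which loads the helicase, by -1.76 (SE 0.56) and Mcm5 by -0.87 (SE 0.32, or -0.43 with the control level in the fit).

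Base excision repair, which removes damaged bases rather than copying errors, served as a list of another repair pathway. Of 15 measured genes, 11 had a lower mean in LRC, where 45.1% of all genes did, and 4 a higher one, 0 passed the threshold and the median difference was -0.16. Once the hybridization control level was added to the fit, 7 of the 15 were lower and the median was 0.0375. Xrcc1, a scaffold of this pathway, was the 1 gene whose groups did not overlap, at 6.09 to 6.79 in non-LRC and 6.85 to 7.43 in LRC, higher in LRC as in 4.71% of all genes. Polb, the gap-filling polymerase, differed by -1.16 (SE 0.52, or -0.72 without non-LRC replicate 1), Mpg, a glycosylase of alkylated bases, by -1.02 (SE 0.54, or -0.65 without LRC replicate 1) and Mbd4, a glycosylase of mismatched thymine, by 0.55 (SE 0.34, or 0.34 without LRC replicate 1).

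**Figure D4:**
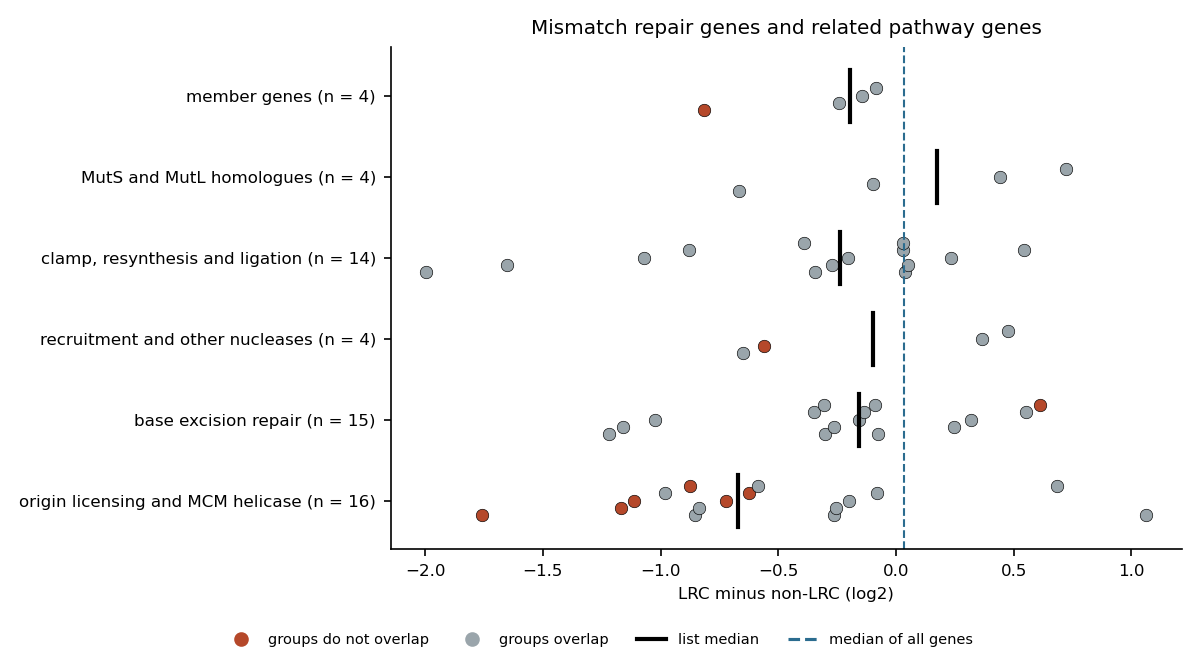
Difference LRC minus non-LRC (log2) of each measured gene at its probe set of highest mean, by list; red points have groups that do not overlap, black bars are list medians and the dashed line is the median of all genes (0.03). The licensing list has its median at -0.67 and the mismatch repair genes at -0.19, with Msh6 at -0.81 apart from the other 3.

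Genes next to the members in the genome had overlapping groups wherever they were measured. Fbxo11, a ubiquitin ligase subunit gene that overlaps the end of Msh6 by 34 bases, was at 6.21 to 6.52 in non-LRC and 6.29 to 6.54 in LRC. Kcnk12, on the other side, was at 4.16 to 4.25 and 4.13 to 4.48. Aimp2, a scaffold of transfer RNA synthetases, begins within 61 bases of Pms2 and shares its promoter window; it differed by 0.10 (SE 0.31).

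Genes whose promoter windows hold any of the E2F-type letters numbered 433 among the 14452 measured genes with a window, Msh6 and Msh3 included. Of these 433, 246 (56.8%) had a lower mean in LRC and 41 (9.47%) separated as lower, with a median difference of -0.07. Of the 14019 genes without the letters, 45.4% had a lower mean and 3.59% separated as lower, with a median of 0.03. None was called in either group. These are shares over genes of the same 6 arrays, and genes are not independent replicates. A gene was counted if any of its windows held the letters, and the GC content of the windows was not taken into account. Whether the letters bear on the differences was not tested.

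The genes whose values ran most like those of Msh6 over the 6 arrays were Atn1 (Pearson r = 0.979), a transcriptional corepressor gene, Tmem167b (0.969), Pcx (0.967), which encodes pyruvate carboxylase, Ccdc47 (0.966) and Ltbp2 (0.965). Atn1 was at 6.92, 7.26 and 7.09 in non-LRC and 6.25, 6.02 and 6.21 in LRC. These correlations carry the difference between the groups. Those most like Msh3 were Eif3h, Scarb1, Tpbg, Nap1l5 and 1110051M20Rik (0.977 to 0.980), which like Msh3 were highest in non-LRC replicate 2. Wdr61, Slmap, B3galt2, Ssr4 and Nrk ran most like Pms2 (0.986 to 0.993), with LRC replicate 1 the lowest array. Mtmr11, Nkrf, Gm4876, Plek2 and Zdhhc22 ran most like Exo1 (0.979 to 0.994), with non-LRC replicate 1 the highest. No gene is named for more than 1 member.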

How the data were processed

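RNA of 3 LRC and 3 non-LRC samples was amplified in 2 rounds and hybridized to 1 array each, per the labels' protocols. The deposited values are log2 expression, 1 value per probe set and array. The submitters' processing notes name RMA without a version, and base 2 was inferred from the values' range. RMA equalizes arrays and so hides any change in a cell's total RNA. Precision is limited by the number of arrays.

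The table held 45101 probe sets; without 64 controls, 45037 were tested with limma 3.58.1 in R 4.3.3 (LRC minus non-LRC, no covariate, Benjamini-Hochberg over all probe sets, threshold 0.05). The platform annotation named 1 gene for 34945 of them, several for 932 and none for 9160, with symbols updated through gene identifiers. For each gene the representative was the probe set with the highest mean of the 6 arrays. Columns of other samples numbered 0. Errors of differences are limma's moderated SEs. Groups did not overlap where all 3 values of one lay on one side of the other's.

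Promoter windows came from RefSeq (GRCm38.p6), whose gene table also gave positions; a neighbour is the nearest protein-coding gene on each side. The fit was tested on simulated data. Members and lists were chosen with earlier results of these data known. By rule, the text names all MutS and MutL homologues measured, Pcna, Rfc1 and Lig1, the 4 genes of smallest unadjusted p in each other list, and the 5 genes of highest Pearson r with each member. Mcm3 is named outside this rule, for its order within LRC. Other settings were repeated quantile normalization, median centring, a filter at the 40th percentile of mean level, array weights, trend and robust moderation, a replicate block, the hybridization control level (18 probe sets) as a covariate, averaging all probe sets of each gene, other thresholds and leaving out each array. A fit keeping LRC replicate 2 alone among the LRC arrays was added after seeing the data.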

Additional observations from a re-analysis of the deposited data

How the results depend on the processing

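Limma called 0 probe sets under each setting tried with the 0.05 threshold, and also at 0.1 and with any 1 array left out (0 to 0); an unadjusted p under 0.05 with at least a 2-fold change gave 774. Msh6 remained lower in LRC under all settings run, at -0.88 to -0.73 with single arrays left out and -0.98 with LRC replicate 2 alone, an unreplicated value. Where arrays were only left out, its sign could not change, because its groups separate. Msh3 turned to 0.021 with hybridization controls as a covariate and 0.082 as the mean of its probe sets, and ran from -0.18 to 0.0473 with arrays left out. Pms2 turned to 0.0132 with array weights, 0.18 with that covariate and 0.16 with LRC replicate 2 alone (arrays left out: -0.30 to 0.11), and Exo1 to 0.13 with LRC replicate 2 alone (-0.51 to 0.0889). The cause was not tested. Leaving out arrays gave 2 to 3 separated member probe sets, as groups were then smaller. Genes with a lower mean ran from 1 to 3 of 4 MutS and MutL homologues, 7 to 12 of 14 clamp and resynthesis genes, 8 to 11 of 15 base excision genes (7 with the covariate), 11 to 14 of 16 licensing genes and 2 of 4 recruitment genes. The sample titles give a replicate number only, so whether same-numbered arrays were paired is not known. Their deviations from the group means correlated at 0.08, 0.141 and 0.081. With the replicate block, limma called 0 probe sets, with 2017 at an unadjusted p under 0.05 against 1673 without it. The block cannot change a difference here, as each number has 1 array per group, so Msh6 stayed at -0.81 (SE 0.18). Values below the array medians, among them all of Exo1's means, limit what can be read.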
